A study of Mus musculus with 3 samples.

Results

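The fibrillar collagens are the collagens that assemble into fibers, and 10 of their genes were followed here, matched by symbol among the 32285 genes of the deposited files. They were *Col1a1* and *Col1a2* (type I), *Col2a1* (type II), *Col3a1* (type III), *Col5a1*, *Col5a2*, and *Col5a3* (type V), *Col11a1* and *Col11a2* (type XI), and *Col27a1* (type XXVII). The genes were chosen by name, with earlier results of these data known. The cells came from the callus of fractured femurs of C57BL/6 mice, collected at day 7, day 10, and day 14 after the fracture. By the study's methods the surgery used isoflurane, buprenorphine for pain, and a steel pin through the marrow. No other treatment is named for these mice. Lin- live cells, that is cells negative for CD45, CD31, and TER119 in the sort, were captured in droplets, and each day gave 1 library of single cells. The study used both sexes in its experiments, and the age of these mice and the number of animals per library are not given in the sources used here. With 1 library per day there was no test between days or between cells. Every interval below covers counting error only, of UMIs or, for shares of cells, of cells.

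Cells were grouped by 5 marker genes. A cell with no UMI of *Ptprc*, which encodes CD45, was called high for *Aspn*, *Cnmd*, *Col10a1*, *Ifitm5*, or *Rgs5* when that gene had a level of at least 1000 counts per 1e6 UMIs (CPM) and at least 3 UMIs in the cell. A UMI is the tag of 1 captured mRNA molecule. *Aspn* encodes asporin of the fibrous matrix, *Cnmd* encodes chondromodulin of cartilage, and *Col10a1* encodes the collagen of hypertrophic cartilage. *Ifitm5* is an osteoblast gene and *Rgs5* a pericyte gene. Cells that passed a single gate were used, and cells that passed several were described apart.

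Fibrillar collagens are made as procollagen, a triple helix of 3 alpha chains with a propeptide at each end. Chains are hydroxylated and folded in the endoplasmic reticulum, the propeptides are cut off outside the cell, and the helices then line up in staggered fibrils that lysyl oxidases cross-link. Type I builds the fibrils of bone and tendon, type III joins it in fibrous and repair tissue, and type II builds the fibrils of cartilage. Types V and XI sit inside these fibrils and set their diameter, and type XXVII is a cartilage collagen of the growth plate. A callus passes from fibrous tissue through cartilage to bone, so its cells differ in which of these genes they use.

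The 10 genes lie on 9 chromosomes of GRCm38 (GENCODE M21). Only *Col3a1* (chr1:45311538-45349706, plus strand) and *Col5a2* (chr1:45374321-45503282, minus strand) are neighbors, with 24.6 kb between them. The type I genes are *Col1a1* (chr11:94936224-94953042) and *Col1a2* (chr6:4504814-4541544), and *Col2a1* lies at chr15:97975602-98004695. *Col5a1* lies at chr2:27886425-28039514 and *Col5a3* at chr9:20770050-20815067. *Col11a1* (chr3:114030540-114220718), *Col11a2* (chr17:34039437-34066685), and *Col27a1* (chr4:63214004-63334991) complete the set. Within *Col5a1*, 2 antisense genes of the files, *2810430I11Rik* and *Gm13372*, had at most 108 UMIs in a library against 81936 and 108458 of *Col5a1* at day 10 and day 14 among cells without *Ptprc*.

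Promoter sequences of 7 of the 10 genes were in the RefSeq table for GRCm38.p6, and those of *Col1a1*, *Col2a1*, and *Col5a2* were not. The 250 bases before the start site are shown for 4 genes whose levels set the gates apart below. These are *Col3a1* of the *Aspn*-high cells, *Col5a3* of the *Rgs5*-high cells, and both type XI genes. The type XI genes lie on different chromosomes and had similar profiles over the gates. Each window is given 5′ to 3′ on the strand of its gene. Capitals mark the motifs CCAAT (the CCAAT box), TATAAA (the TATA box), GGGCGG (the GC box bound by SP factors), and ACAAAG (a core of SOX motifs), each on either strand.
*Col3a1*, chr1:45311288-45311537, plus strand: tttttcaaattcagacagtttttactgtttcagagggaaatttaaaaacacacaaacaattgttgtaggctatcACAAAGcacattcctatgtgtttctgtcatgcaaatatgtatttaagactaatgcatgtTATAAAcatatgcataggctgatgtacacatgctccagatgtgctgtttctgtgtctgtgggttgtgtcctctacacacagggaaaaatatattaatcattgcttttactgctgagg
*Col5a3*, chr9:20815068-20815317, minus strand: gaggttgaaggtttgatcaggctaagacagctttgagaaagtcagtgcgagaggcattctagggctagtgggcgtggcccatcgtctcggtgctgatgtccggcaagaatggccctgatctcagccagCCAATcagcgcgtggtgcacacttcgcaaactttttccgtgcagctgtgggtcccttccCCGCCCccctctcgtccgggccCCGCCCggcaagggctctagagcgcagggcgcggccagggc
*Col11a1*, chr3:114030290-114030539, plus strand: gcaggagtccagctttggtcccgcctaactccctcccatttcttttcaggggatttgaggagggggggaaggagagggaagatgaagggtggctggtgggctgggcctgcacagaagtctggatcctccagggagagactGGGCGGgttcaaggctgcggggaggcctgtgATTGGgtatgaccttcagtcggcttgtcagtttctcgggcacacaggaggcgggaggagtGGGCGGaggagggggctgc
*Col11a2*, chr17:34038888-34039137, plus strand: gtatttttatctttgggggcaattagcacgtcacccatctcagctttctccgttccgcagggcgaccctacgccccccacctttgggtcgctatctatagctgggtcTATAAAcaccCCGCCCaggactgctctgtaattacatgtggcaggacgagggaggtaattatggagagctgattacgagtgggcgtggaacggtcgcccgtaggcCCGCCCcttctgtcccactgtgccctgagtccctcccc
The letters differed between *Col3a1* and the others. The *Col3a1* window held 35.2% G and C, below the median of 52.4% over all 32851 windows of this length in the table, while the other 6 fibrillar collagen windows held 57.6% to 76.4%. GGGCGG was found in 6 of the 7 windows, all but that of *Col3a1*, and in 32.7% of all windows. CCAAT was found in 3 of 7 (33.8% of all), TATAAA in 2 of 7 (12.4% of all), and ACAAAG in *Col3a1* only (16.5% of all). These are matches of letters and not sites of binding. The start sites are those of the RefSeq table, and some differ from the GENCODE starts given above. The windows of *Col1a2* and *Col27a1* lay inside the GENCODE genes, and that of *Col1a2* touched annotated exons. The window of *Col11a2* ended some way before the GENCODE start.

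Cells were kept by the limits of the study, which were 500 to 5000 detected genes with at most 10% of UMIs mitochondrial and 5% from hemoglobin. This left 7017, 6593, and 9853 cells from the respective libraries of day 7, day 10, and day 14, with 55187609, 113618580, and 154573230 UMIs. The day 7 library did not match the sort, since 93.6% of its cells had a UMI of *Ptprc*, against 0.0910% at day 10 and 1.76% at day 14. Libraries shared 29 to 42 barcodes pairwise. The gates held 22 *Aspn*-high, 57 *Cnmd*-high, 10 *Col10a1*-high, 1 *Ifitm5*-high, and 0 *Rgs5*-high cells at day 7. At day 10 they held 1590, 2329, 520, 73, and 47 cells, and at day 14 they held 3572, 1480, 1653, 249, and 125 cells. Markers that the gates did not use mostly followed them. *Ogn*, *Postn*, *Ptn*, and *Thbs2* summed to 8169 and 6865 CPM in *Aspn*-high cells at day 10 and day 14 and to 260 to 2090 CPM in the other gates, and the 5 pericyte markers, all detected, summed to 1461 and 1412 CPM in *Rgs5*-high cells and to 83.6 to 382 CPM in the others. Among these pericyte markers *Cspg4* was higher in *Cnmd*-high cells (380 and 327 CPM) than in *Rgs5*-high cells (305 and 215 CPM). Chondrocyte markers were highest in *Cnmd*-high cells (12436 and 11641 CPM). The list of hypertrophic chondrocytes, which includes *Ibsp*, *Spp1*, and *Alpl*, was high in *Col10a1*-high cells (71424 and 62168 CPM). It was higher still in *Ifitm5*-high cells (72606 and 80663 CPM), so this list did not follow the *Col10a1* gate.

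The *Ptprc*-positive cells at day 7, with 1 or more UMIs of *Ptprc*, were used as the background of free RNA, that is RNA from outside the cell. Blood cells are not known to make fibrillar collagen. Droplets that also held a collagen-making cell were not told apart, so this background may exceed the free RNA. The 10 genes took 0.183% of the UMIs of these 6570 cells, with 508 CPM of *Col1a1*, 490 CPM of *Col1a2*, 453 CPM of *Col2a1*, 132 CPM of *Col3a1*, and 118 CPM of *Col11a1*. The other 5 genes lay between 2.78 CPM (*Col5a3*) and 42.9 CPM (*Col11a2*). Most of it sat in few droplets. The 64 cells with 20 or more fibrillar collagen UMIs (0.974% of the cells) held 86.2% of these UMIs, and their median depth was 20070 UMIs against 5017 UMIs in the others. In the remaining 6506 cells *Col2a1* was at 102 CPM and *Col1a1* at 45.7 CPM, and the 10 genes took 0.0257% of the UMIs, a set chosen after the data were seen. At day 10 only 3 cells had 3 or more UMIs of *Ptprc*, so the free RNA of that library could not be measured in this way. At day 14 there were 78 such cells. They held 2638 CPM of *Col2a1*, 2857 CPM of *Col1a1*, 1368 CPM of *Col3a1*, 717 CPM of *Col11a1*, and 33.5 CPM of *Col5a3*. The 5824 cells of day 7 with 3 or more UMIs of *Ptprc* held less. They had 177 CPM of *Col2a1*, 176 CPM of *Col1a1*, 54.4 CPM of *Col3a1*, 38.3 CPM of *Col11a1*, and 1.29 CPM of *Col5a3*. Of these 78 cells, 20 had 20 or more fibrillar collagen UMIs, and in the other 58 the level was 390 CPM for *Col2a1*, 209 CPM for *Col1a1*, 138 CPM for *Col3a1*, and 69.0 CPM for *Col11a1*. The 78 cells and the 58 among them are both given below, since the droplets rich in collagen set the higher values and the 58 were chosen for their low counts. What set the 20 droplets apart was not tested.

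The gates differed in how much fibrillar collagen they carried. The 10 genes took 10.9% of all UMIs in *Ifitm5*-high cells at day 10 and 9.27% at day 14. In *Cnmd*-high cells they took 8.26% and 6.93%, and in *Aspn*-high cells 6.01% and 5.65%. *Col10a1*-high cells had 3.99% and 3.00%, and *Rgs5*-high cells had the least of the 5 gates, 2.36% and 1.71%. Single cells varied around these values. In *Ifitm5*-high cells at day 14 the middle 80% of cells lay between 2.88% and 16.5%, and in *Rgs5*-high cells between 0.679% and 2.62%.

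The mix of the genes differed between the gates, and *Col2a1* led in 2 of the 5. In *Aspn*-high cells the type I genes and *Col3a1* made up most of the family's UMIs. *Col1a1* had 32.9% and 33.4%, *Col1a2* had 30.4% and 31.6%, and *Col3a1* had 23.6% and 23.4% at day 10 and day 14. *Ifitm5*-high cells carried mostly type I, with 45.5% and 48.9% *Col1a1* and 40.7% and 40.6% *Col1a2*. In *Cnmd*-high cells *Col2a1* had 55.9% (95% CI, 55.9% to 56.0%) and 56.9% (95% CI, 56.9% to 57.0%), followed by *Col1a2* and *Col11a1*. *Col10a1*-high cells had a similar share of *Col2a1*, 54.5% and 57.3%. *Rgs5*-high cells divided their UMIs mainly between *Col1a1* (31.4% and 27.9%), *Col3a1* (29.6% and 28.8%), and *Col1a2* (22.8% and 23.4%), with 4.40% and 4.42% of *Col5a3*.

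**Figure D1:**
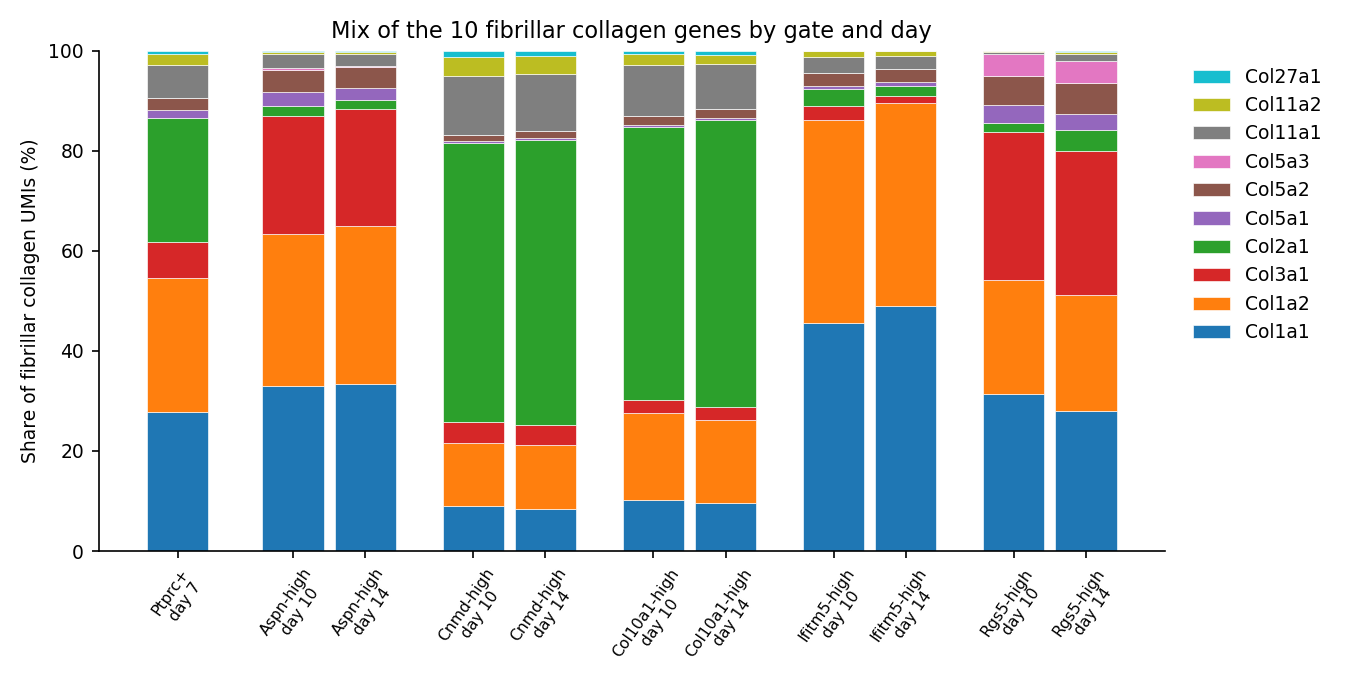
Share of each gene among the summed UMIs of the 10 fibrillar collagen genes (y axis, percent) in the 5 gates at day 10 and day 14 and in *Ptprc*-positive cells at day 7, 1 bar per group and 1 library per day. *Col2a1* fills over 54% of the bars of *Cnmd*-high and *Col10a1*-high cells, *Col1a1* and *Col1a2* fill most of the *Ifitm5*-high bars, and *Col5a3* is visible in the *Rgs5*-high bars.

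The mix in the *Ptprc*-positive cells of day 7 differed from that of each gate. *Ptprc*-positive cells at day 7 had 27.8% *Col1a1*, 26.8% *Col1a2*, 24.8% *Col2a1*, and 7.22% *Col3a1*. *Col2a1* thus had a larger share there than in *Aspn*-high, *Ifitm5*-high, and *Rgs5*-high cells, where it was between 1.73% and 4.05%. This mix was mainly that of the 64 droplets rich in collagen, which held 86.2% of these UMIs. In the other 6506 cells *Col2a1* led, at 102 CPM against 45.7 CPM of *Col1a1* and 44.2 CPM of *Col1a2*. The gates of day 7 were small. The 22 *Aspn*-high cells had 35.5% *Col1a1*, 30.5% *Col1a2*, and 20.6% *Col3a1*. The 57 *Cnmd*-high cells had 46.6% *Col2a1* (95% CI, 46.3% to 46.9%), 14.6% *Col1a1*, 13.6% *Col1a2*, and 13.5% *Col11a1*.

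The gene with the most UMIs was then counted in single cells with 20 or more UMIs of the family. *Col2a1* led in 95.1% (95% CI, 94.1% to 95.9%) of *Cnmd*-high cells at day 10 and in 90.1% at day 14, and in 82.7% and 83.0% of *Col10a1*-high cells. *Col1a1* led in 75.3% and 81.9% of *Ifitm5*-high cells and in 55.6% and 53.2% of *Aspn*-high cells, where *Col1a2* led in 28.3% and 30.1%. In *Rgs5*-high cells *Col1a1* led in 22 and *Col3a1* in 20 of 45 cells at day 10, whereas at day 14 *Col3a1* led in 90 and *Col1a1* in 28 of 123 cells. *Rgs5*-high cells were thus mostly led by either *Col1a1* or *Col3a1*. The share led by *Col3a1* was 44.4% (95% CI, 29.6% to 60.0%) in one library and 73.2% (95% CI, 64.4% to 80.8%) in the other. These intervals treat the cells of 1 library as independent and do not cover differences between libraries. Over the summed UMIs there were 0.941 and 1.03 tags of *Col3a1* per tag of *Col1a1*.

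Type I collagen is the main protein of bone, and both of its genes were highest in *Ifitm5*-high cells. *Col1a1* was at 49743 and 45313 CPM in these cells at day 10 and day 14 and at 19779 and 18848 CPM in *Aspn*-high cells. It was at 7435 and 5831 CPM in *Cnmd*-high cells, 7412 and 4762 CPM in *Rgs5*-high cells, and 4080 and 2865 CPM in *Col10a1*-high cells. The levels of *Cnmd*-high and *Rgs5*-high cells at day 10 did not differ beyond counting error. The level of *Col10a1*-high cells at day 14 was close to the 2857 CPM of the 78 *Ptprc*-positive cells and above the 209 CPM of the 58 with few collagen UMIs. *Col1a2* was at 44419 and 37627 CPM in *Ifitm5*-high cells and at 18290 and 17863 CPM in *Aspn*-high cells. In *Cnmd*-high cells it was at 10425 and 8887 CPM, in *Col10a1*-high cells at 6939 and 4997 CPM, and in *Rgs5*-high cells at 5379 and 3985 CPM.

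Type I collagen is a helix of chains from both genes, and the ratio of the tags of *Col1a1* to those of *Col1a2* was not the same in every gate. It was 1.08 and 1.06 in *Aspn*-high, 1.12 and 1.20 in *Ifitm5*-high, and 1.38 and 1.20 in *Rgs5*-high cells. In the gates led by *Col2a1* it was below 1, with 0.713 (95% CI, 0.710 to 0.716) and 0.656 in *Cnmd*-high cells and 0.588 and 0.573 in *Col10a1*-high cells. In *Ptprc*-positive cells at day 7 it was 1.04. Tags of the 3′ end count molecules, so no correction for length is needed, but capture may differ between genes. The change of the ratio between gates does not depend on a constant difference in capture.

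*Col3a1*, the collagen of elastic and early repair tissue, was highest in *Aspn*-high cells. It was at 14210 and 13217 CPM there, at 6976 and 4910 CPM in *Rgs5*-high cells, and at 3370 and 2744 CPM in *Cnmd*-high cells. *Ifitm5*-high cells had 2974 and 1359 CPM and *Col10a1*-high cells 1071 and 762 CPM. At day 14 both of these gates were not above the 1368 CPM of the 78 *Ptprc*-positive cells but above the 138 CPM of the 58 with few collagen UMIs. Set against *Col1a1*, there were 0.941 and 1.03 tags of *Col3a1* per tag of *Col1a1* in *Rgs5*-high cells, 0.718 and 0.701 in *Aspn*-high cells, and 0.0598 and 0.0300 in *Ifitm5*-high cells. *Aspn*-high and *Ifitm5*-high cells thus both carried mostly type I collagen but differed in how much type III went with it.

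*Col2a1*, the main collagen of cartilage, was at 46179 and 39443 CPM in *Cnmd*-high cells and at 21777 and 17165 CPM in *Col10a1*-high cells. Below these lay *Ifitm5*-high cells at 3686 and 1894 CPM, *Aspn*-high cells at 1225 and 976 CPM, and *Rgs5*-high cells at 414 and 691 CPM. At day 14 these 3 low values lay below the 2638 CPM of the 78 *Ptprc*-positive cells and above the 390 CPM of the 58 with few collagen UMIs. After each cell was thinned to 2000 UMIs, *Col2a1* had a UMI in 59.3% of *Aspn*-high and 52.5% of *Rgs5*-high cells of day 14 (97.9% and 95.1% before thinning), and in 65.7% of 169 cells of that library with 1 or more UMIs of *Ptprc* (98.2% before thinning). Of all 173 such cells, 74 had 20 or more fibrillar collagen UMIs, and *Col2a1* was at 405 CPM in the other 99. In the *Ptprc*-positive cells of day 7 the share was 22.0% (51.0% before thinning). The share in *Cnmd*-high cells was 99.8% at day 14 and 100% at day 10.

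Type V collagen has 3 genes here, of which *Col5a1* and *Col5a2* had similar orders of the gates and *Col5a3* had another. *Col5a1* was highest in *Aspn*-high cells, at 1651 and 1367 CPM, and lowest in *Col10a1*-high cells, at 155 and 117 CPM. The 117 CPM of day 14 lay below the 206 CPM of the 78 *Ptprc*-positive cells. It was above the 22.3 CPM of the 58 with few collagen UMIs. *Ifitm5*-high cells (838 and 714 CPM) and *Rgs5*-high cells (832 and 556 CPM) had overlapping intervals of *Col5a1* at day 10, and *Cnmd*-high cells had 299 and 293 CPM. *Col5a2* was at 2838 and 2401 CPM in *Ifitm5*-high and 2637 and 2433 CPM in *Aspn*-high cells, and these did not differ beyond counting error at day 14. It was at 1402 and 1059 CPM in *Rgs5*-high, 1006 and 988 CPM in *Cnmd*-high, and 724 and 536 CPM in *Col10a1*-high cells. There were 0.626 and 0.562 tags of *Col5a1* per tag of *Col5a2* in *Aspn*-high cells, but only 0.214 and 0.218 in *Col10a1*-high cells.

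*Col5a3*, the third chain gene of type V, was highest in *Rgs5*-high cells. These cells held 637 UMIs of it at day 10, a level of 1037 CPM with an interval of 958 to 1121. At day 14 they held 1008 UMIs, or 754 CPM, with an interval of 708 to 802. In *Aspn*-high cells it was at 173 and 123 CPM, and in the other 3 gates it did not exceed 6.59 CPM. The level was 2.78 CPM in the *Ptprc*-positive cells of day 7 and 33.5 CPM in the 78 cells of day 14, and in the 58 with few collagen UMIs it was 2.03 CPM, under the 6.09 CPM that 3 UMIs would give. In *Rgs5*-high cells *Col5a3* had more tags than *Col5a1*, with a ratio of 1.25 (95% CI, 1.11 to 1.40) and 1.35 (95% CI, 1.23 to 1.49), whereas in the other gates the ratio was between 0.00376 and 0.105. After thinning to 2000 UMIs, 91.1% and 76.2% of *Rgs5*-high cells had a UMI of *Col5a3*, compared with 20.6% and 18.0% of *Aspn*-high cells, 0.388% of *Ptprc*-positive cells at day 7, and 7.10% of the 169 cells at day 14. Before thinning the shares were 100% and 97.5%, 53.8% and 46.0%, 0.856%, and 14.2%. Cells that were both *Aspn*-high and *Rgs5*-high (28 at day 10 and 81 at day 14) had 1005 and 738 CPM, close to the cells that were *Rgs5*-high alone. In *Ifitm5*-high cells there were 4 and 12 UMIs of *Col5a3* in all.

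Type XI collagen nucleates the thin fibrils of cartilage, and both of its genes were highest in *Cnmd*-high cells. *Col11a1* was at 9770 and 7894 CPM there, at 4007 and 2732 CPM in *Col10a1*-high cells, and at 3369 and 2416 CPM in *Ifitm5*-high cells. *Aspn*-high cells had 1739 and 1363 CPM and *Rgs5*-high cells 91.2 and 218 CPM. *Col11a2* was at 3124 and 2417 CPM in *Cnmd*-high, 1307 and 908 CPM in *Ifitm5*-high, and 880 and 514 CPM in *Col10a1*-high cells. It was at 238 and 172 CPM in *Aspn*-high and 22.8 and 77.8 CPM in *Rgs5*-high cells. *Ifitm5*-high cells thus had more *Col11a2* than *Col10a1*-high cells, although they had less *Col11a1*. The ratio of *Col11a1* to *Col11a2* was 7.31 and 7.95 in *Aspn*-high, 3.13 and 3.27 in *Cnmd*-high, and 2.58 and 2.66 in *Ifitm5*-high cells.

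The type XI genes did not keep a fixed ratio to *Col2a1* either. *Cnmd*-high cells had 4.73 tags of *Col2a1* per tag of *Col11a1* at day 10, and *Col10a1*-high cells had 5.43 at day 10 and 6.28 at day 14. In *Aspn*-high cells there were 0.704 and 0.716, so *Col11a1* exceeded *Col2a1*, and in *Ptprc*-positive cells at day 7 there were 3.83. In *Aspn*-high cells the level of *Col11a1* was near that of *Col5a1*, with a ratio of 1.05 and 0.997, whereas it was 32.7 and 27.0 in *Cnmd*-high cells. *Col27a1* was highest in *Cnmd*-high cells as well. It was at 971 and 773 CPM in *Cnmd*-high, 292 and 267 CPM in *Col10a1*-high, and 143 and 140 CPM in *Aspn*-high cells. *Ifitm5*-high cells had 88.1 and 66.4 CPM and *Rgs5*-high cells 22.8 and 47.1 CPM. At day 14 both of these gates lay below the 82.0 CPM of the 78 *Ptprc*-positive cells. They were above the 12.2 CPM of the 58 with few collagen UMIs.

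**Figure D2:**
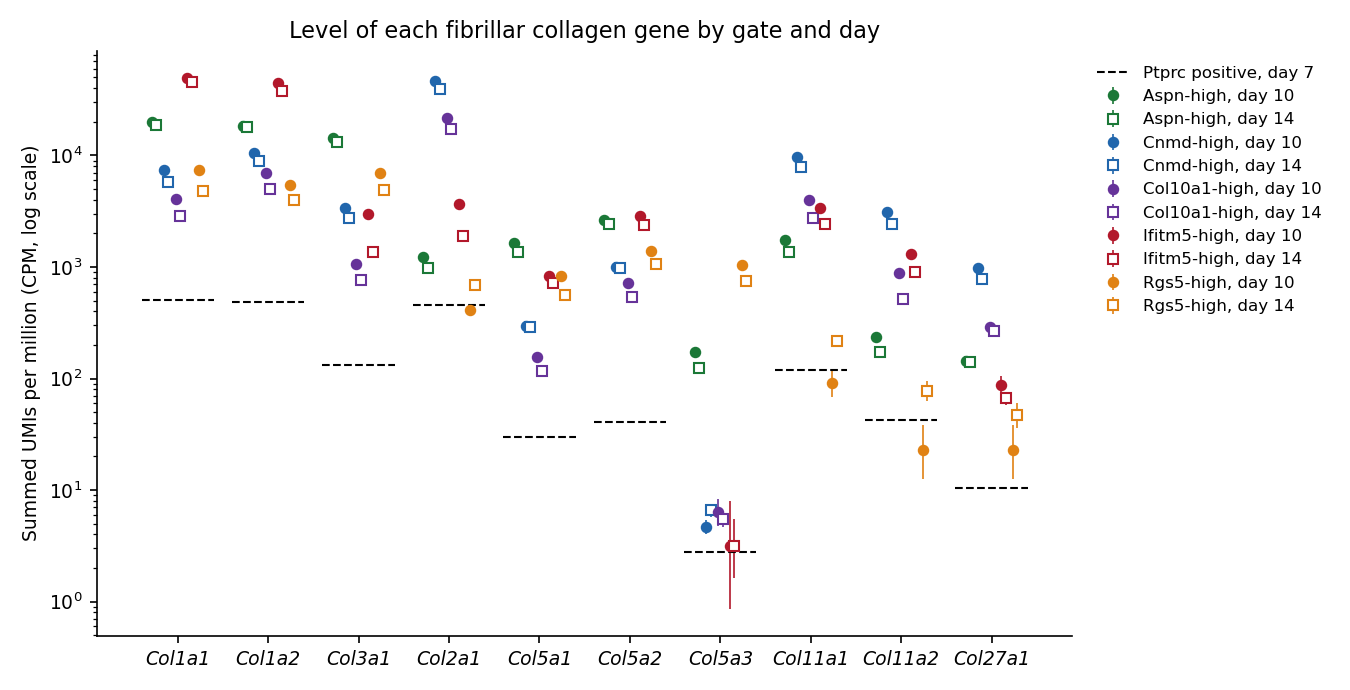
Level of each gene as CPM of summed UMIs (y axis, log scale) in each gate at day 10 (filled circles) and day 14 (open squares), with exact Poisson 95% intervals, and in *Ptprc*-positive cells at day 7 (dashed line). *Col5a3* is at 1037 and 754 CPM in *Rgs5*-high cells and close to the dashed line in *Cnmd*-high, *Col10a1*-high, and *Ifitm5*-high cells, and *Col2a1*, *Col11a1*, *Col11a2*, and *Col27a1* are highest in *Cnmd*-high cells.

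Set against *Aspn*-high cells of the same day, *Cnmd*-high cells had 4 genes that were at least 2-fold higher at day 10, namely *Col2a1*, *Col11a1*, *Col11a2*, and *Col27a1*, and 5 that were at least 2-fold lower, namely *Col1a1*, *Col3a1*, and all 3 type V genes. Of all 14342 genes with 20 or more UMIs over both groups, 8.0% were this much higher and 19.8% this much lower. The same 4 genes were higher at day 14 and *Col1a2* joined the lower ones (background 6.64% and 21.2%). *Col2a1* was 37.7-fold and 40.4-fold higher, with log2 ratios of 5.24 (95% CI, 5.22 to 5.25) and 5.34 (95% CI, 5.32 to 5.35). *Col5a3* was 37.1-fold and 18.7-fold lower, with log2 ratios of -5.21 and -4.23. Its level in *Cnmd*-high cells, 4.68 and 6.59 CPM, was near the 2.78 CPM of the *Ptprc*-positive cells of day 7. With that level subtracted the log2 ratios were -6.49 and -4.99. At day 14 the 78 *Ptprc*-positive cells had 33.5 CPM, above the *Cnmd*-high cells, and the 58 with few collagen UMIs had 2.03 CPM. The size of this difference thus depends on the free RNA, and subtracting the 33.5 CPM would leave no value at day 14. In *Col10a1*-high cells the same 4 genes were higher at day 10 (background 10.0%) and the other 6 were lower (background 21.3%). At day 14 *Col27a1* missed 2-fold, with a log2 ratio of 0.93, which left 3 higher (background 11.2%) and 6 lower (background 21.7%). *Col3a1* had log2 ratios of -3.73 and -4.12 there and *Col1a1* had -2.28 and -2.72.

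*Ifitm5*-high cells had *Col1a1*, *Col1a2*, *Col2a1*, and *Col11a2* at least 2-fold higher than *Aspn*-high cells at day 10 (background 7.64%) and *Col3a1* and *Col5a3* at least 2-fold lower (background 22.4%). *Col1a1* had a log2 ratio of 1.33 and *Col11a2* of 2.46. The log2 ratio of *Col2a1* was 1.59, but it was -0.30 with gates at 2000 CPM and -0.32 when cells in several gates were counted in each, so its direction depended on the gates. At day 14 *Col1a1*, *Col1a2*, and *Col11a2* were higher (background 5.71%) and *Col3a1*, *Col5a3*, and *Col27a1* lower (background 24.9%), with *Col3a1* at -3.28. *Col5a2* was level in both gates, with log2 ratios of 0.11 and -0.02.

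*Rgs5*-high cells had a single gene that was higher than in *Aspn*-high cells on both days, *Col5a3*, which was 5.98-fold and 6.11-fold higher (background 18.3% and 18.2%). The log2 ratio was 2.58 (95% CI, 2.46 to 2.70) and 2.61 (95% CI, 2.51 to 2.71). At day 10, 7 genes were at least 2-fold lower (background 12.2%), with *Col5a1* and *Col5a2* just inside the limit, and at day 14, 8 were (background 12.1%), with *Col2a1* inside it. *Col11a1* was lowest at day 10, with a log2 ratio of -4.25. In *Rgs5*-high cells at day 10 *Col2a1*, *Col11a1*, and *Col11a2* were at 414, 91.2, and 22.8 CPM. This was below the 453, 118, and 42.9 CPM of the *Ptprc*-positive cells of day 7. It was above the 102, 21.2, and 12.1 CPM of the 6506 with few collagen UMIs. The part of free RNA in these ratios was not tested. In this comparison the median over the 10 genes was -1.49 and -1.36, against 0.09 and 0.12 over all genes tested. The groups of *Aspn*-high cells are shared by these comparisons.

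**Figure D3:**
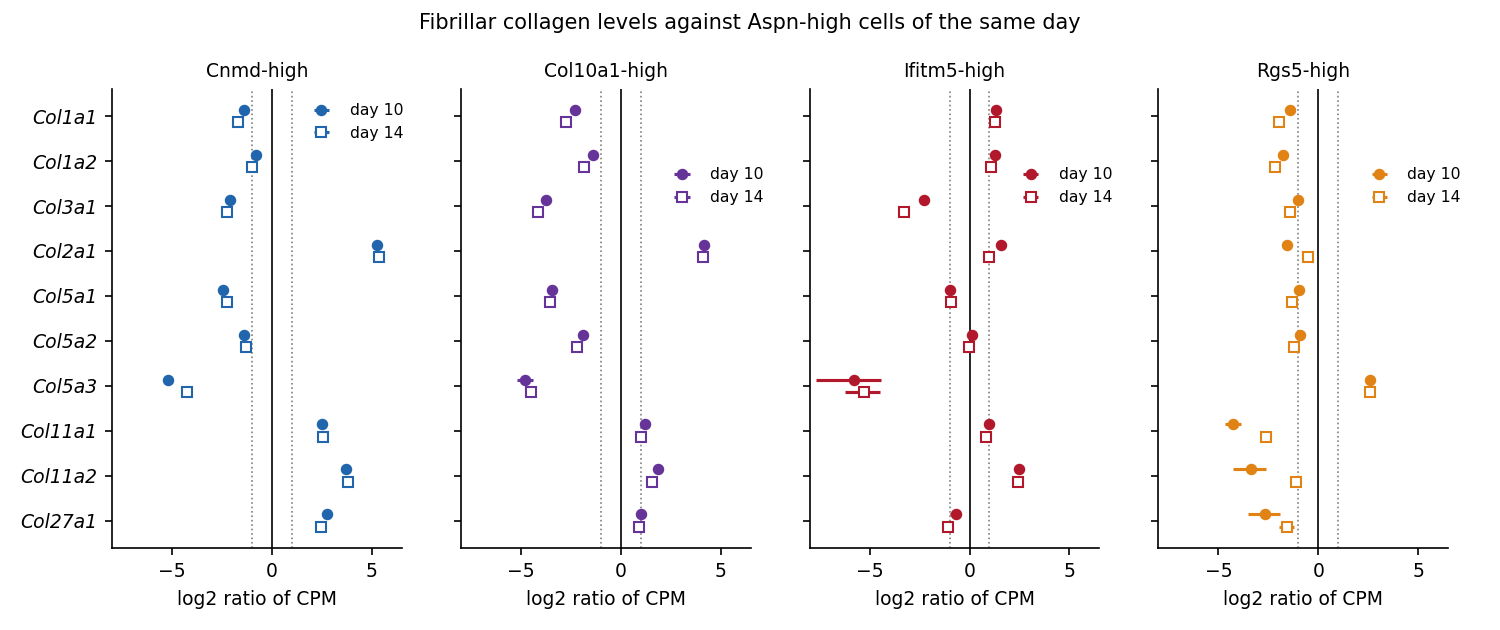
Log2 ratio of CPM of each gene in *Cnmd*-high, *Col10a1*-high, *Ifitm5*-high, and *Rgs5*-high cells over *Aspn*-high cells of the same day (x axis), at day 10 (filled circles) and day 14 (open squares), with exact binomial 95% intervals and dotted lines at 2-fold. *Col2a1* lies above 4 in *Cnmd*-high and *Col10a1*-high cells on both days, and *Col5a3* is the only gene right of the upper dotted line in *Rgs5*-high cells.

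Both gates led by *Col2a1* were then compared with each other. *Col10a1*-high cells had no gene of the family that was 2-fold higher than in *Cnmd*-high cells on either day (background 14.3% on both). *Col2a1*, *Col3a1*, *Col11a1*, *Col11a2*, and *Col27a1* were at least 2-fold lower at day 10 (background 12.3%), and *Col1a1* and *Col5a1* were as well at day 14 (background 10.5%). *Col11a2* differed most, with log2 ratios of -1.83 and -2.23, and *Col2a1* had -1.08 and -1.20. The counts of 5 and 7 fell to 1 and 2 when cells in several gates were counted in each. This added the cells high for both *Cnmd* and *Col10a1* to both gates, and to the *Cnmd* gate also 534 and 352 cells that were *Aspn*-high, which had 20243 and 15326 CPM of *Col2a1*. Their separate parts in the change were not tested.

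The cells high for both genes, 335 at day 10 and 316 at day 14, carried more *Col2a1* than either gate alone, 57260 and 44975 CPM. All cells that passed the *Cnmd* gate, also those in other gates, were therefore binned by their *Col10a1*. From under 100 CPM of *Col10a1* (2131 and 916 cells) through 100 to under 1000 and 1000 to under 10000 to 10000 CPM or more (103 and 117 cells), *Col2a1* was at 40016, 48311, 58321, and 53008 CPM at day 10. At day 14 it was at 33593, 37007, 44191, and 43171 CPM. Its share of the family was higher in each bin than in the one before, from 52.4% to 65.9% at day 10 and from 53.2% to 67.0% at day 14. *Col1a1* was lower in the top bin than in the bottom bin, at 8030 and 3672 CPM at day 10 and at 6363 and 2649 CPM at day 14. *Col3a1* was at 3798 CPM in the bottom bin and 1710 CPM in the top bin at day 10, and at 3270 and 1247 CPM at day 14. *Col11a1*, *Col11a2*, and *Col27a1* peaked in the third bin on both days, as *Col2a1* did. *Cnmd* itself was lower in the top bin, at 2177 against 3434 CPM at day 10. The bins include 534 and 352 cells that were *Aspn*-high as well and not *Col10a1*-high. Each of these had under 1000 CPM or fewer than 3 UMIs of *Col10a1*. They had 0.892 and 0.738 tags of *Col2a1* per tag of *Col1a1* and *Col1a2* together, against 2.59 and 2.68 in *Cnmd*-high cells. Their part in the differences between bins was not tested.

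**Figure D4:**
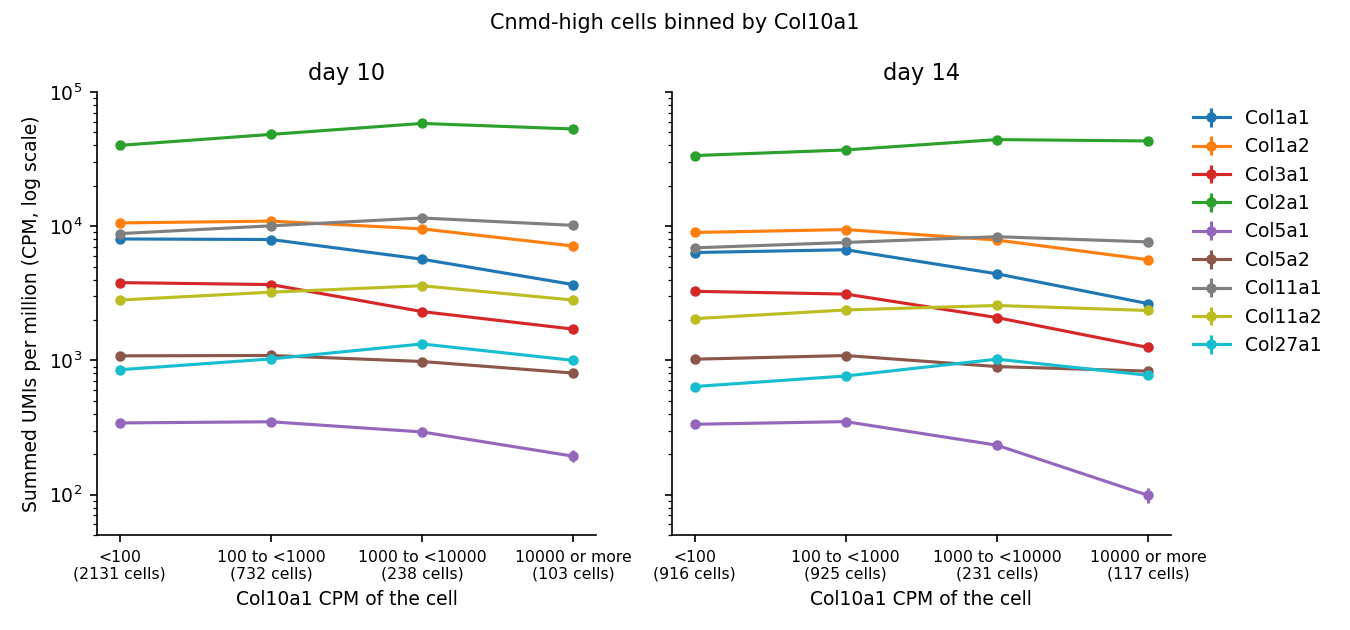
Level as CPM of summed UMIs (y axis, log scale) of 9 fibrillar collagen genes (all but *Col5a3*) in *Cnmd*-high cells binned by the *Col10a1* CPM of the cell (x axis), at day 10 and day 14, with exact Poisson 95% intervals that are mostly smaller than the points. *Col1a1*, *Col3a1*, and *Col5a1* are lower in the highest bin than in the lowest, and *Col2a1* is highest in the third bin. Cells that also passed other gates, such as *Aspn*-high cells, are included.

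Between day 10 and day 14 the 10 genes differed little within the large gates. No gene was 2-fold apart in *Aspn*-high cells (background 3.03% higher and 3.35% lower), *Cnmd*-high cells (2.29% and 3.03%), or *Col10a1*-high cells (3.31% and 2.41%), and 27 of the 30 log2 ratios were within 0.50 of 0. Values were mostly lower at day 14, with a median log2 ratio of -0.19, -0.26, and -0.45 against -0.02, -0.03, and -0.11 over all genes tested. In *Ifitm5*-high cells *Col3a1* was 2.19-fold lower at day 14 (background 2.65% lower and 3.48% higher), with a log2 ratio of -1.13 (95% CI, -1.19 to -1.07), and *Col2a1* had -0.96. *Col5a3* had 16 UMIs there over both days and was left out, so 9 genes were compared.

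*Rgs5*-high cells showed another pattern. *Col11a1*, *Col11a2*, and *Col27a1* were at least 2-fold higher at day 14 (background 4.84% higher and 3.09% lower), with log2 ratios of 1.26, 1.77, and 1.05, and *Col2a1* had 0.74 (95% CI, 0.54 to 0.95). The other 6 genes were lower, between -0.40 and -0.64. Few molecules stand behind it: there were 56 UMIs of *Col11a1*, 14 of *Col11a2*, and 14 of *Col27a1* at day 10, and 292, 104, and 63 at day 14. Markers of other cells were higher with it. The hypertrophic list summed to 476 CPM in *Rgs5*-high cells at day 10 and 3792 CPM at day 14, and the chondrocyte list to 127 and 321 CPM, with all 5 markers of each list detected on both days. The osteoblast list summed to 148 and 1627 CPM, with 4 and 5 of 5 markers detected. The levels of *Col2a1*, *Col11a1*, *Col11a2*, and *Col27a1* in *Rgs5*-high cells at day 14 all lay below those of the 78 *Ptprc*-positive cells of that library, which were 2638, 717, 159, and 82.0 CPM, and above those of the 58 with few collagen UMIs, which were 390, 69.0, 28.4, and 12.2 CPM. The part of free RNA in the difference was not tested. Without cells above the 95th percentile of UMIs, and as the mean over cells, 1 gene was 2-fold higher instead of 3.

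**Figure D5:**
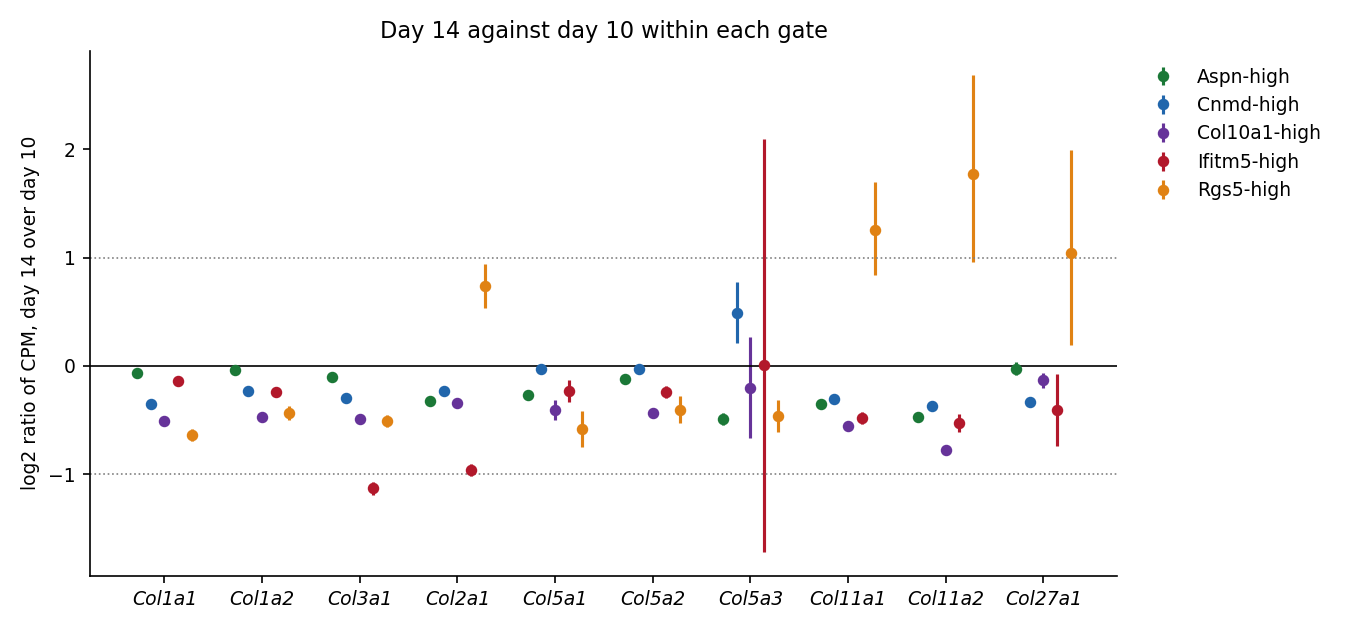
Log2 ratio of CPM at day 14 over day 10 (y axis) for each gene and gate, with exact binomial 95% intervals and dotted lines at 2-fold, 1 library per day. Most points lie between the lines, *Col5a3* in *Ifitm5*-high cells rests on 16 UMIs, *Col3a1* in *Ifitm5*-high cells lies below, and *Col11a1*, *Col11a2*, and *Col27a1* in *Rgs5*-high cells lie above.

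Within a gate, some pairs of genes varied together from cell to cell and others did not. After each cell was thinned to 4000 UMIs, the Spearman correlation of *Col1a1* with *Col1a2* was between 0.71 and 0.94 in the 9 groups of day 10 and day 14 that had 50 or more cells. *Col2a1* and *Col11a1* had 0.63 and 0.68 in *Cnmd*-high cells and 0.73 and 0.71 in *Col10a1*-high cells, but 0.21 and 0.17 in *Aspn*-high cells. *Col2a1* and *Col1a1* had -0.21 and -0.19 in *Cnmd*-high cells and 0.33 and 0.29 in *Col10a1*-high cells. *Col5a1* and *Col5a2* had 0.15 to 0.45 over the 9 groups. *Col1a1* and *Col3a1* had 0.55 and 0.45 in *Aspn*-high cells and -0.15 and -0.03 in *Ifitm5*-high cells. Cells of 1 library share their library and its free RNA, so these are descriptions.

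The genes that build, cut, and bind fibrillar collagens were taken from a list of 58, of which 57 symbols were in the files. *Cnmd*-high cells had 8 of 56 genes at least 2-fold higher than *Aspn*-high cells on both days (14.3%, background over both days 5.10%) and 12 lower (21.4%, background 15.2%). *P3h2*, a prolyl 3-hydroxylase, was at 92.7 CPM against 14.1 CPM at day 10, with log2 ratios of 2.72 and 3.35 on the 2 days. *Adamts2*, which cuts the N-propeptide of types I, II, and III, was at 10.3 and 9.70 CPM against 101 and 98.7 CPM, and the tendon transcription factor *Scx*, the integrin gene *Itga11*, and *Postn*, which encodes a matrix protein bound to fibrils, were lower too.

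*Col10a1*-high cells had 8 of 56 higher than *Aspn*-high cells (14.3%, background over both days 7.30%) and 26 lower (46.4%, background 17.1%). *Loxl4*, a lysyl oxidase of the cross-linking step, was at 369 and 337 CPM against 4.05 and 3.68 CPM, a log2 ratio of 6.51 on both days. *P4ha3*, a prolyl 4-hydroxylase subunit, was at 2.88 and 3.27 CPM against 91.0 and 93.4 CPM. Against *Cnmd*-high cells, 6 of 56 were higher (10.7%, background 9.75%), a share near that of all genes, and 25 lower (44.6%, background 8.23%). *Pcolce*, which enhances removal of the C-propeptide, was at 45.9 and 54.7 CPM in *Col10a1*-high and 510 and 471 CPM in *Cnmd*-high cells, and *Fmod*, a proteoglycan of the fibril surface, was at 160 and 153 CPM against 1102 and 1082 CPM. *Itga2*, a collagen receptor, was at 20.1 and 11.4 CPM against 0.75 and 1.40 CPM.

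*Ifitm5*-high cells had 7 of 56 higher than *Aspn*-high cells (12.5%, background over both days 3.66%) and 12 lower (21.4%, background 14.8%). *Loxl4* was at 52.7 and 47.9 CPM, while *Loxl1*, another lysyl oxidase, was at 19.7 and 15.5 CPM against 195 and 214 CPM. *Rgs5*-high cells had 2 of 56 higher (3.57%, background 9.58%) and 17 lower (30.4%, background 6.70%). *Itga1*, the integrin chain that binds collagen in smooth muscle, was at 852 and 686 CPM against 14.4 and 14.7 CPM. The small proteoglycans of the fibril were low in these cells, with *Lum* at 27.7 and 149 CPM against 2321 and 2964 CPM and *Dcn* at 40.7 and 233 CPM against 2544 and 3145 CPM. *Scx* had 0 UMIs in *Rgs5*-high cells at day 10, which allows up to 4.89 CPM, against 198 CPM in *Aspn*-high cells.

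Finally, genes with the profile most like each member were sought over the 9 gate and day groups with 50 or more cells, among 5265 genes of at least 20 CPM on average, by Pearson's correlation of log2(CPM + 10). For *Col1a1* these were *Grasp*, *Nrp2*, and *Slc35c2* (0.984 to 0.978) and for *Col1a2* they were *Slc35c2*, *Grasp*, and *Zdhhc8* (0.993 to 0.970). *Col2a1* was followed by *Prkg2* (0.992), *Siah2*, and *Hapln1*, which encodes the cartilage link protein. *Col3a1* was followed by *Postn* (0.989), *Nudt3*, and *Pcbp4*. For *Col5a1* the nearest was *Clcn4* (0.980), followed by *Ppp1r14b* and *Rnase4*, and for *Col5a2* it was *Sh3pxd2a* (0.990), followed by *Usp46* and *Gpr153*. *Col5a3* was followed by *Axl*, *Actg2*, and *Tagln* (all 0.994), of which *Actg2* and *Tagln* are genes of contractile cells. *Col11a1* was followed by *Serinc5* (0.991), *Pdcd4*, and *Adk*, *Col11a2* by *Clint1* (0.980), *Golph3*, and *Chst11*, and *Col27a1* by *Slc44a2* (0.992), *Plagl1*, and *Stk26*. Among the members themselves, *Col1a1* and *Col1a2* had 0.97, *Col5a1* and *Col5a2* had 0.94, and *Col11a1* and *Col11a2* had 0.93, whereas *Col5a3* and *Col11a2* had -0.89. The genes that are not members were picked as the highest of 5265 over 9 points. Their correlations are thus high by the choice, and no link to a member was tested. The 9 points share 2 libraries and only 1 of them is *Rgs5*-high, so the profile of *Col5a3* rests mainly on that point.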

How the data were processed

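The deposited files hold raw UMI counts per gene and cell for 3 libraries, 1 per day. The authors aligned the reads to the mouse genome (mm10 per the labels) and collapsed UMIs with Cell Ranger. The labels name Cell Ranger 3.0 and v2 chemistry, whereas the study's methods name other versions of both, so the chemistry is uncertain. No filter on genes or mitochondrial UMIs had been applied to the deposited cells, and the study's limits were applied here.

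UMIs were summed over the cells of a gate and scaled to counts per 1e6 UMIs (CPM). Intervals are exact: Poisson for levels, Clopper-Pearson for shares, and binomial for ratios, all at 95%. A count of 0 was read as allowing up to 3 counts. A gene was compared when both groups held 20 or more UMIs together, and called when 2-fold or more apart. The percentages named background are the shares of all such genes past this limit, on 1 day or, for the pathway list, on both days in the same direction. No p-values were computed. Doublets were limited by the 5000-gene limit and by dropping cells of several gates, 911 at day 10 and 928 at day 14, and no doublet caller was run. Pathway genes were named when 2-fold or more apart in the same direction at day 10 and day 14, at most 6 per comparison by the mean size of the log2 ratio. The genes, gates, and lists were chosen with earlier results of these data known. The intervals of the ratios were tried on simulated Poisson counts, which is the model they assume. That simulation held no spread between cells, no free RNA, and no difference between libraries, so it says nothing about these. Python 3.11.15 with numpy 2.4.6, scipy 1.17.1, pandas 2.3.3, and matplotlib 3.10.9 was used. Promoters came from the RefSeq table for GRCm38.p6 and positions from GENCODE M21.

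The alternatives were other gate levels, overlapping gates, all deposited cells, no upper gene limit, cells of high UMIs left out, means over cells, subtraction of free RNA, another denominator, other fold and count limits, and other thinning depths. The split of the background by number of collagen UMIs and the *Rgs5* gate with cells that are also *Aspn*-high were added after the data were seen.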

Additional observations from a re-analysis of the deposited data

Results flagged for a closer look

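Some genes differed in opposite directions between day 10 and day 14 in different gates, beyond counting error. The difference between gates was not tested, since each day had 1 library. *Col2a1* had a log2 ratio of 0.74 in *Rgs5*-high cells, against -0.33 in *Aspn*-high, -0.23 in *Cnmd*-high, -0.34 in *Col10a1*-high, and -0.96 in *Ifitm5*-high cells. *Col11a1* had 1.26 in *Rgs5*-high cells, against -0.35, -0.31, -0.55, and -0.48 in the same order of the others, and *Col11a2* had 1.77, against -0.47, -0.37, -0.78, and -0.53. *Col27a1* had 1.05 in *Rgs5*-high cells, against -0.33 in *Cnmd*-high, -0.13 in *Col10a1*-high, and -0.41 in *Ifitm5*-high cells. *Col5a3* had 0.49 in *Cnmd*-high cells, where it was at most 6.59 CPM, against -0.49 in *Aspn*-high and -0.46 in *Rgs5*-high cells.

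*Col24a1*, a further fibrillar collagen gene that was no member of the set, was above the 0.397 CPM of the *Ptprc*-positive cells of day 7 in every gate. It was at 112 and 103 CPM in *Ifitm5*-high cells at day 10 and day 14. It was at 14.7 and 16.2 CPM in *Aspn*-high, 11.4 and 8.22 CPM in *Rgs5*-high, 8.88 and 5.68 CPM in *Col10a1*-high, and 1.87 and 2.79 CPM in *Cnmd*-high cells. *Rgs5*-high cells had 7 and 11 UMIs.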

How the results depend on the processing

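No paired analysis was possible because each day had 1 library, and no replicate could be left out. Of 996 values of the 83 called ratios over 12 alternatives, 994 kept their direction. Part of these values could not turn. The other fold and count limits leave each ratio as it was, and the added *Rgs5* gate alters only the ratios of that gate. The log2 ratio of *Col2a1* between *Ifitm5*-high and *Aspn*-high cells at day 10 turned to -0.30 with gates at 2000 CPM and to -0.32 with cells of several gates counted in each. Of 180 counts of genes past 2-fold, 164 stayed within 1.5 times. With cells of several gates counted in each, *Col10a1*-high against *Cnmd*-high cells had 1 and 2 genes at day 10 and day 14 in place of 5 and 7, and between days *Aspn*-high cells had 2 and *Col10a1*-high cells 1 in place of 0. Gates at 2000 CPM gave 3 genes for *Col10a1*-high against *Cnmd*-high cells at day 10. A limit of 1.5-fold gave 8 there, and between days 1 in *Col10a1*-high, 2 in *Ifitm5*-high, and 5 in *Rgs5*-high cells, in place of 0, 1, and 3. Subtracting the free RNA gave 1 in *Cnmd*-high and 2 in *Ifitm5*-high cells between days. Gates at 500 CPM, leaving out cells of the highest UMIs, and means over cells gave 2 in *Ifitm5*-high cells, and the last 2 of these settings gave 1 in *Rgs5*-high cells. The cause was not tested.

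Shares were given with very narrow counting intervals, so small shifts passed them. In the order of gates at 500 CPM, gates at 2000 CPM, several gates counted in each, all deposited cells, and mean over cells, *Col3a1* in *Aspn*-high cells had 23.5%, 24.1%, 20.1%, 23.5%, and 24.0% at day 10 and 23.2%, 24.1%, 21.9%, 23.0%, and 23.3% at day 14. *Col2a1* in *Cnmd*-high cells had 56.6%, 56.9%, 54.6%, 55.2%, and 53.2% at day 10 and, from 2000 CPM on, 58.9%, 55.3%, 56.6%, and 52.9% at day 14. *Col2a1* in *Col10a1*-high cells had 49.7%, 58.2%, 59.9%, 53.4%, and 52.7% at day 10 and 53.3%, 58.6%, 57.5%, 54.3%, and 56.7% at day 14. *Col1a1* in *Ifitm5*-high cells had 44.8%, 46.7%, and 44.6% in the first 3 settings at day 10, and at day 14 it had 49.2% at 500 CPM, 48.0% with several gates, and 49.3% as a mean over cells. *Col5a3* in *Rgs5*-high cells had 3.90% with several gates and 5.77% as a mean over cells at day 10, and 3.48%, 3.68% with all deposited cells, and 6.55% at day 14.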
